A study of Mus musculus with 6 samples.

Results

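This report concerns 10 genes of the heat shock system of the cytosol and the mitochondria, Hspa1a, Hspa1b, Hspa8, Hsp90aa1, Hsp90ab1, Hsph1, Dnajb1, Hspd1, Hspe1 and Hsf1. They were taken by symbol from the gene-name column of each table, and all 10 were present among the 35602 genes of the count matrix and among the 34714 genes of the tables of the replicate 1 pair. Chaperones of the HSP70 family bind unfolded stretches of protein and are driven through their ATP cycle by J-domain partners, which load clients, and by nucleotide exchange factors, which release them. HSP90 chaperones complete the folding of kinases and receptors, and the HSP60 and HSP10 chaperonin folds proteins imported into mitochondria. Many of these genes are induced by heat or proteotoxic stress through heat shock factor 1, and activated T cells, which make large amounts of new protein, express several of them at high levels without heat.

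The cells were CD4+ T cells from mouse spleen, stimulated through CD3 and CD28 for 72 h with a MAPK13 inhibitor or with the solvent DMSO, with 3 libraries per group. For replicates 2 and 3 the labels give the genotype WT, and state that 17.1 µM inhibitor or 0.1 µl DMSO was added after culture to day 1. For the replicate 1 pair the labels name only the treatment (MAPK13-IN-1 or DMSO), and the libraries were made with another kit, which keeps strand. The age and number of mice, and whether libraries of a group came from separate cultures, are not given in the sources used here, so p-values measure the spread between these libraries, which may be technical. The comparison asks how gene expression in stimulated CD4+ T cells differs when MAPK13 is inhibited. Total counts were 26874805 and 28487403 in DMSO replicates 2 and 3 and 33854760 and 32617702 in inhibitor replicates 2 and 3. The same libraries had 19159 and 19266 genes above 0 counts in DMSO, and 21575 and 21171 with the inhibitor. The replicate 1 pair was deposited as 1 value per gene, read here as FPKM (fragments per kilobase of transcript, adjusted for library size); that unit is not named by the sources and was judged from the values.

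The labelled cell type was checked against fixed marker lists. In the counted libraries 7 of the 8 CD4 T cell markers were listed, with a summed level of 1664 and 1695 CPM (counts scaled to the size of each library, with TMM factors) in DMSO and 903.1 and 1025 CPM with the inhibitor. Their most abundant gene in DMSO was Cd5, at 425.7 and 439.2 CPM, while with the inhibitor Cd4 stood above it, at 267.0 and 283.1 CPM against 154.0 and 200.1 CPM. Of the 7, 6 fell and none rose, where of all 16269 genes tested 32.3% fell and 31.5% rose, shares to be read beside the counts of each list below. Cd4 itself had 7084 and 7497 counts in DMSO and 9477 and 9594 with the inhibitor, and was not called. The 10 B cell markers each had at least 617 counts in every one of the same libraries, and summed to 1241 and 1215 CPM in DMSO and 1390 and 1416 CPM with the inhibitor, where Pax5 led. Of these 10, 6 rose, 2 fell and 2 were not called. In the replicate 1 pair the B cell markers summed to 54.5 FPKM in DMSO and 46.8 FPKM with the inhibitor, against 1024 and 933.8 FPKM for the CD4 T cell markers. B cell transcripts were thus plentiful in all 4 counted libraries, and low beside the T cell markers in the replicate 1 pair.

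Other lineages were scarce, but several moved with the treatment. The 8 erythroid markers summed to 7.83 and 7.54 CPM in DMSO and 90.02 and 64.6 CPM with the inhibitor, where Hbb-bs led, and 6 of the 7 tested rose. The 8 macrophage markers, led by Cd68, summed to 12.2 and 11.1 CPM in DMSO and 38.9 and 31.99 CPM with the inhibitor, and 4 of 6 tested rose. The 6 dendritic cell markers, led by Zbtb46, summed to 19.2 and 19.5 CPM in DMSO and 59.00 and 49.2 CPM with the inhibitor, and all 4 tested rose. These non-T lineages were thus higher in both inhibitor libraries than in either DMSO library. The 2 CD8 markers, led by Cd8b1, summed to 11.7 and 10.9 CPM in DMSO and 5.49 and 7.85 CPM with the inhibitor, and both fell. In the replicate 1 pair, with no test, the CD8 markers went the other way, from 3.49 FPKM in DMSO to 8.39 FPKM with the inhibitor. The macrophage markers went there from 3.00 to 9.60 FPKM, the dendritic cell markers from 3.36 to 14.6, the NK markers from 0.600 to 4.35 and the erythroid markers from 0.931 to 1.94 FPKM. The NK list (led by Eomes, with Klra8 at 0 in all 4 counted libraries), the neutrophil list (led by Mpo with the inhibitor, with S100a9 at 0) and the fibroblast list (led by Col1a1, with Col3a1, Dcn and Pdgfra at 0) summed to at most 2.60 CPM in any counted library. A count of 0 allows at most 0.0886 to 0.112 CPM in these libraries, counting error only. The study isolated CD4+ T cells from spleen with a commercial kit, a step meant to remove these other cell types. In bulk RNA, fewer cells of a type and less RNA per cell cannot be told apart, and the part of these cell types in the chaperone results below was not tested. Mapk13, the gene for the inhibited kinase, had 79 and 74 counts in DMSO and 21 and 51 with the inhibitor, whereas in the replicate 1 pair it was listed at 0.191 FPKM in DMSO and 3.28 FPKM with the inhibitor.

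With the inhibitor, the 10 genes moved in both directions in the counted libraries. Hsph1, both inducible HSP70 genes, Hspa8, Hsp90ab1 and Hspe1 rose, Hsp90aa1, Hspd1 and Hsf1 fell, and Dnajb1 was not called. All 10 genes passed the filter on low counts, and 6 were called higher and 3 lower at an adjusted p under 0.05 in edgeR's quasi-likelihood test. Across the 16269 genes tested, 31.5% were called higher and 32.3% lower. The median log2 fold change was 0.34 over the 10 genes and 0.01 over all genes tested. Since most of the genes tested were called, a call by itself says little about these genes, and the size and direction of each change are given below. The DMSO and inhibitor libraries did not overlap in any of the 10, Dnajb1 included, but this held for 83.0% of all genes tested, and chance gives 33.3% with 2 libraries against 2. Scaling by library totals alone, in place of TMM, moved the log2 fold change of all genes by a median of 0.13, and no gene of the set changed direction under any of the 3 other scalings tried.

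**Figure D1:**
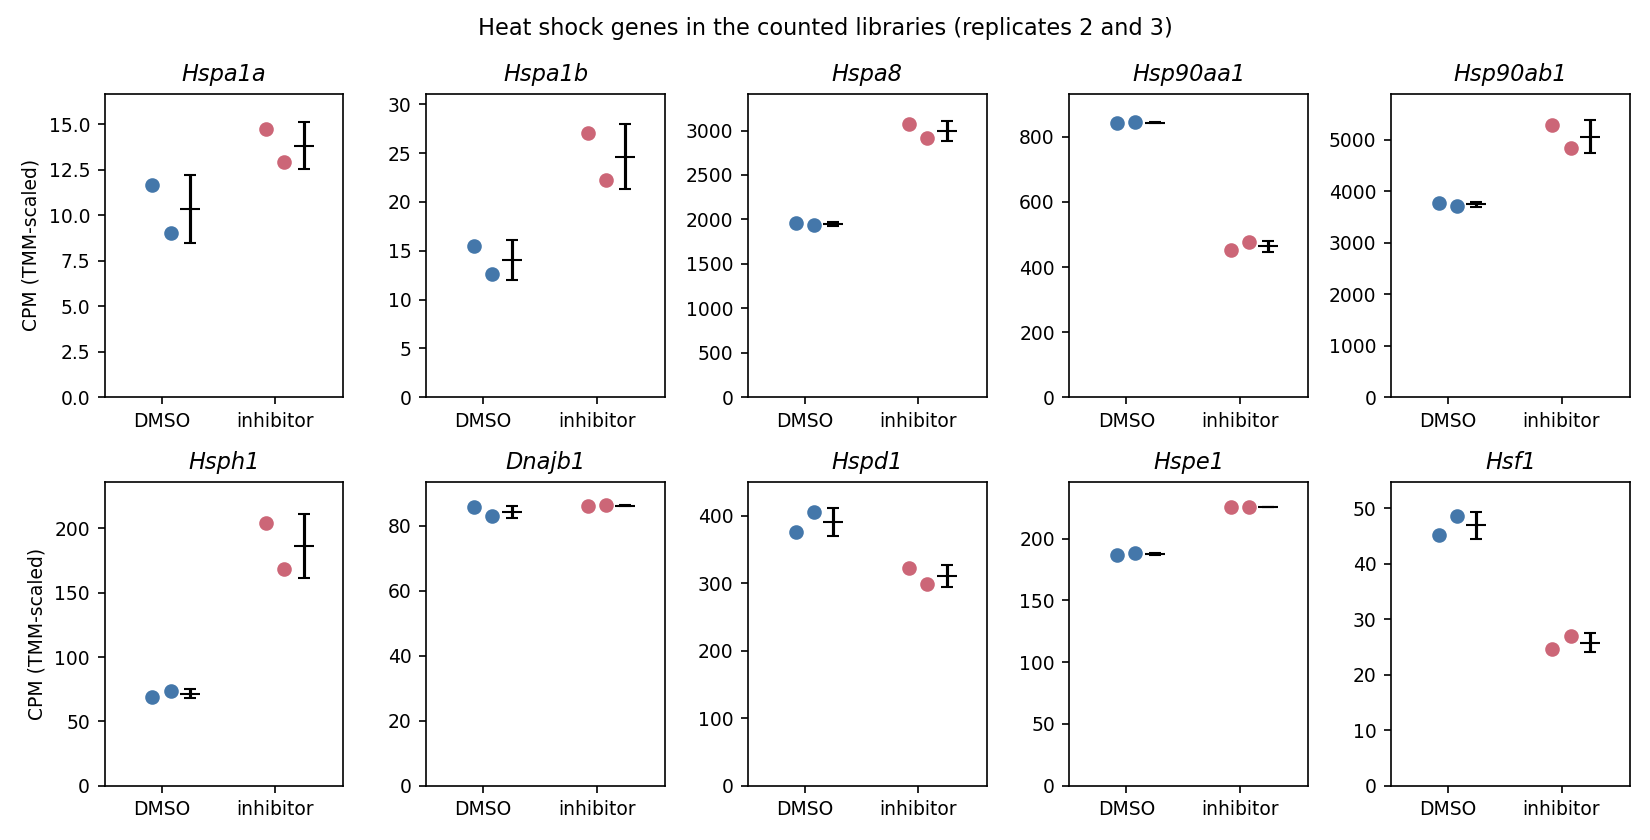
Level of each of the 10 genes in TMM-scaled CPM (linear axis from 0) in the counted libraries. Points are single libraries, DMSO in blue and inhibitor in red, and the bar beside them is the mean ± SD (n = 2). Hsph1 stands at 69.3 and 73.9 CPM in DMSO and 204.1 and 168.7 CPM with the inhibitor, and Hsp90aa1 near 844 CPM in DMSO and at 452.3 and 476.3 CPM with the inhibitor.

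Hspa8 encodes the constitutive HSP70 (HSC70) of the cytosol, which also uncoats clathrin vesicles. It had 50643 and 52619 counts in DMSO and 109067 and 98921 with the inhibitor, or 1964 and 1935 CPM against 3073 and 2919 CPM. The mean rose from 1949 ± 20.6 to 2996 ± 109 CPM (SD, n = 2), 1.54-fold (log2 fold change 0.62 ± 0.04 SE, edgeR adjusted p = 1.2e-06). In the replicate 1 pair it moved the other way, from 1019 FPKM in DMSO to 898.7 FPKM with the inhibitor.

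Hspa1a and Hspa1b encode the stress-inducible HSP70, a protein that is scarce in most unstressed cells. Hspa1a had 301 and 245 counts in DMSO and 523 and 437 with the inhibitor, or 11.7 and 9.01 CPM against 14.7 and 12.9 CPM. Hspa1b had 399 and 342 counts against 959 and 755, or 15.5 and 12.6 CPM against 27.02 and 22.3 CPM. For Hspa1a the higher DMSO library and the lower inhibitor library were close. Hspa1b rose 1.76-fold (log2 fold change 0.82 ± 0.13 SE, edgeR adjusted p = 0.00034). Hspa1a rose 1.34-fold (log2 fold change 0.42 ± 0.14 SE, edgeR adjusted p = 0.0263), and this call rested on DMSO replicate 3, without which the log2 fold change was 0.23 and the edgeR adjusted p 0.296. Both copies differed more in the replicate 1 pair, Hspa1a going from 4.52 to 20.7 FPKM, 4.57-fold, and Hspa1b from 5.17 to 22.7 FPKM, 4.39-fold.

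The inducible copies lie side by side on the minus strand of chromosome 17, Hspa1b at chr17:34956436-34959238 and Hspa1a at chr17:34969190-34972156 (GENCODE M21, GRCm38), with 9952 bases from the end of the first to the start of the second. Of all stretches of 50 bases in the Hspa1b transcript, 62.3% also occur in Hspa1a, and 58.8% of those of Hspa1a occur in Hspa1b. How reads that match both were counted is not given in the sources used here, so the split between the copies is uncertain. Summed as 1 gene before the fit, they rose by a log2 fold change of 0.66 ± 0.12 SE (edgeR adjusted p = 0.00081).

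Hsph1 encodes HSP110, a nucleotide exchange factor for HSP70 that also works with it in dissolving aggregates. It had 1787 and 2011 counts in DMSO and 7245 and 5716 with the inhibitor, or 69.3 and 73.9 CPM against 204.1 and 168.7 CPM. Of the 10 genes it had the highest log2 fold change in the counted libraries, 1.38 ± 0.09 SE, a 2.60-fold rise (edgeR adjusted p = 5.6e-07). It was also higher in the replicate 1 pair, at 20.1 FPKM in DMSO and 33.4 FPKM with the inhibitor. It was the only one of the 10 past an absolute log2 fold change of 1 in the counted libraries.

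Dnajb1 encodes HSP40, a J-domain protein that delivers clients to HSP70 in the cytosol and nucleus, and is a classical heat shock gene. It had 2207 and 2256 counts in DMSO and 3052 and 2922 with the inhibitor, or 85.6 and 83.0 CPM against 86.0 and 86.2 CPM. The means, 84.3 ± 1.86 and 86.1 ± 0.170 CPM (SD, n = 2), gave a log2 fold change of 0.03 ± 0.06 SE that did not pass the test (edgeR adjusted p = 0.676). Under library totals alone it passed as a small rise (log2 fold change 0.16, edgeR adjusted p = 0.048), close to the 0.13 by which that scaling moved all genes. The replicate 1 pair listed 18.8 FPKM in DMSO and 20.8 FPKM with the inhibitor. Dnajb1 and Hsph1 thus differed in log2 fold change, 0.03 and 1.38, in the same libraries. Each is only 1 of several J-domain partners or exchange factors of HSP70, and others went in either direction, as given below.

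The HSP90 genes of the cytosol moved in opposite directions in the counted libraries. Hsp90ab1, the constitutive HSP90 beta, had 97273 and 100865 counts in DMSO and 187454 and 163829 with the inhibitor, or 3772 and 3709 CPM against 5282 and 4835 CPM. Hsp90aa1, the more inducible HSP90 alpha, had 21757 and 22962 counts against 16052 and 16140, or 843.8 and 844.3 CPM against 452.3 and 476.3 CPM. Hsp90ab1 rose 1.35-fold (log2 fold change 0.44 ± 0.05 SE, edgeR adjusted p = 2.4e-05), and Hsp90aa1 fell 1.82-fold (log2 fold change −0.86 ± 0.05 SE, edgeR adjusted p = 3.0e-07). In the replicate 1 pair Hsp90ab1 was lower with the inhibitor, 858.5 against 1282 FPKM, and Hsp90aa1 was listed at 225.3 against 238.6 FPKM.

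Hspd1 and Hspe1 encode HSP60 and HSP10, the barrel and the lid of the mitochondrial chaperonin, and share one promoter region between them. Hspd1 had 9688 and 11009 counts in DMSO and 11432 and 10150 with the inhibitor, or 375.7 and 404.8 CPM against 322.1 and 299.6 CPM. Hspe1 had 4819 and 5121 counts against 7999 and 7644, or 186.9 and 188.3 CPM against 225.4 and 225.6 CPM. The subunits moved apart. Hspd1 fell 1.26-fold (log2 fold change −0.33 ± 0.06 SE, edgeR adjusted p = 0.00073; −0.20 and 0.0119 under library totals alone), and Hspe1 rose 1.20-fold (log2 fold change 0.27 ± 0.05 SE, edgeR adjusted p = 0.0013). The replicate 1 pair had Hspd1 lower with the inhibitor as well, at 148.2 against 226.4 FPKM, and Hspe1 was listed at 249.5 against 242.8 FPKM. GENCODE places Hspd1 at chr1:55077835-55088243 on the minus strand and Hspe1 at chr1:55088132-55091307 on the plus strand (GRCm38), so that the gene models overlap by 112 bases. The kit of the counted libraries is not stated to keep strand, so whether reads from that overlap were told apart is not known.

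Hsf1 encodes the transcription factor that binds heat shock elements in the promoters of chaperone genes once it is released from chaperones and forms trimers. Its activity is set largely at the protein level, which these data do not measure. It had 1166 and 1324 counts in DMSO and 872 and 915 with the inhibitor, or 45.2 and 48.7 CPM against 24.6 and 27.004 CPM. Hsf1 fell 1.82-fold (log2 fold change −0.87 ± 0.09 SE, edgeR adjusted p = 1.2e-05), while the replicate 1 pair listed 18.4 FPKM in DMSO and 17.6 FPKM with the inhibitor.

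Across the set, the replicate 1 pair had 5 genes higher with the inhibitor and 5 lower, while of the 10448 genes at 1 FPKM or more in each of its libraries 54.3% were higher and 45.7% lower. It has no replicate check. The median log2 ratio, with a pseudocount of 1, was −0.01 over the 10 genes and 0.05 over those 10448. Hspa1a, Hspa1b, Hsph1, Dnajb1 and Hspe1 were higher in both sets of libraries, and Hsp90aa1, Hspd1 and Hsf1 lower in both, although Dnajb1 was not called in the counted libraries and Hsp90aa1, Hspe1 and Hsf1 differed little in the pair. Hspa8 and Hsp90ab1, the most abundant of the 10, had opposite directions, with log2 ratios of −0.18 and −0.58 in the pair. The sets of libraries differ in kit, unit and B cell transcripts, and the parts of these in the difference cannot be told apart.

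**Figure D2:**
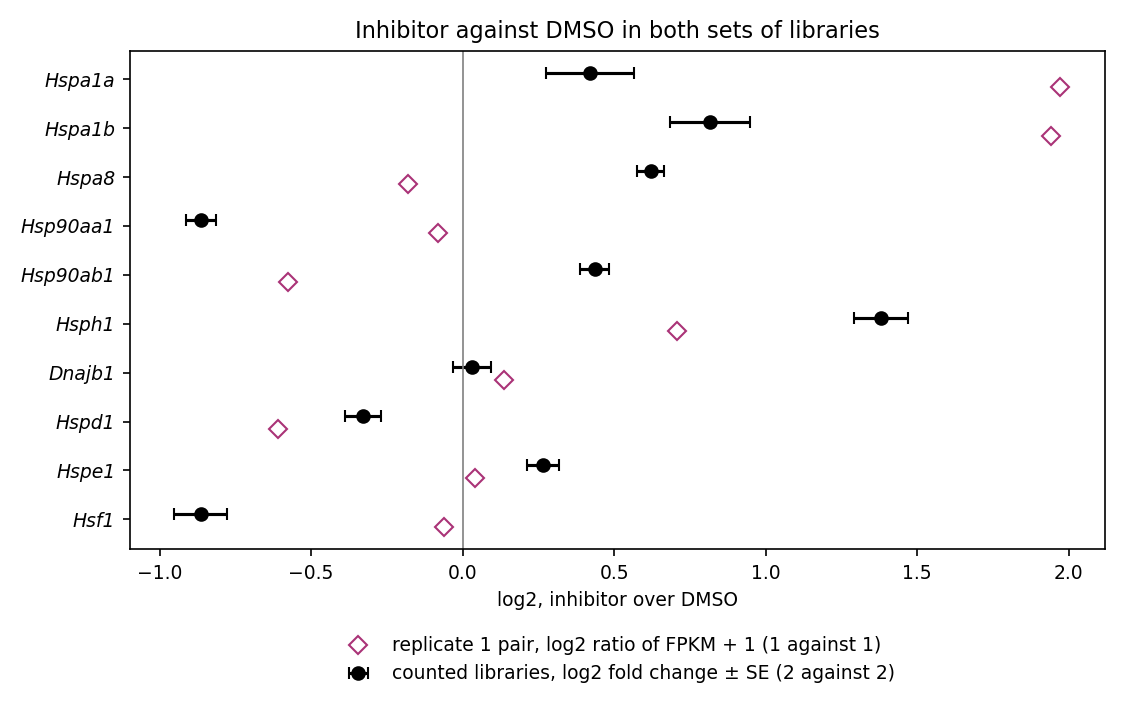
Inhibitor over DMSO on the log2 scale for each of the 10 genes. Black points are the fitted log2 fold change ± SE of the counted libraries (2 against 2), and open diamonds the log2 ratio of FPKM with a pseudocount of 1 in the replicate 1 pair (1 against 1). Hspa8 (0.62 and −0.18) and Hsp90ab1 (0.44 and −0.58) lie on opposite sides of 0 in the separate sets.

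Levels were compared between genes per length, as CPM per kilobase of GENCODE exon sequence. In DMSO replicates 2 and 3 the level was highest for Hsp90ab1, at 1247 ± 14.9 CPM per kb (SD, n = 2), followed by Hspa8 at 453.2 ± 4.79 and Hsp90aa1 at 214.7 ± 0.106. The mitochondrial pair came next, Hspd1 at 147.7 ± 7.79 and Hspe1 at 127.3 ± 0.682 CPM per kb. Dnajb1 at 26.3 ± 0.581, Hsph1 at 9.86 ± 0.452, Hsf1 at 6.61 ± 0.345, Hspa1b at 5.00 ± 0.731 and Hspa1a at 3.49 ± 0.635 CPM per kb completed the order. This order depends on the length used. Per kilobase of the longest GENCODE transcript, an alternative chosen after the data were seen, Hspe1 at 194.6 ± 1.04 stood above Hspd1 at 161.1 ± 8.49 CPM per kb in DMSO, and Hsph1 at 15.03 ± 0.690 and Hsf1 at 14.99 ± 0.782 were not separable. With the inhibitor, per kilobase of exon sequence, Hspe1, at 153.0 ± 0.101 CPM per kb, stood above Hsp90aa1 at 118.1 ± 4.32 and Hspd1 at 117.7 ± 6.04, as it also did per kilobase of the longest transcript. Hsph1 reached 25.7 ± 3.45 beside Dnajb1 at 26.9 ± 0.0532 CPM per kb, but per kilobase of the longest transcript 39.1 ± 5.26 against 28.7 ± 0.0569. Hsf1, at 3.63 ± 0.242 CPM per kb, lay below Hspa1b at 8.79 ± 1.20 and Hspa1a at 4.66 ± 0.438, whereas per kilobase of the longest transcript it was at 8.23 ± 0.549 and Hspa1a was the lowest. In the DMSO library of replicate 1, Hsp90ab1 and Hspa8 again had the highest levels and Hspa1b and Hspa1a the lowest, in FPKM. Between them Hspe1 at 242.8 FPKM was listed above Hsp90aa1 at 238.6 and Hspd1 at 226.4, and Hsph1 at 20.1 above Dnajb1 at 18.8, unlike the order per kilobase of exon sequence.

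Ratios within a library do not depend on scaling between libraries. Hsp90aa1 had 0.224 and 0.228 counts per count of Hsp90ab1 in DMSO and 0.0856 and 0.0985 with the inhibitor. Hspe1 had 0.497 and 0.465 counts per count of Hspd1 in DMSO and 0.700 and 0.753 with the inhibitor. Both ratios thus separated the groups, the first by a fall and the second by a rise. For each 1000 counts of Hspa8 the inducible copies together had 13.8 and 11.2 counts in DMSO and 13.6 and 12.1 with the inhibitor, so that this ratio overlapped between the groups although both sides of it rose. For the replicate 1 pair the ratio of Hsp90aa1 to Hsp90ab1 went from 0.186 in DMSO to 0.262 with the inhibitor, opposite to the counted libraries. The ratio of Hspe1 to Hspd1 went from 1.07 to 1.68, in the same direction as there, and the inducible copies went from 9.52 to 48.3 per 1000 of Hspa8, all in FPKM. These ratios were not tested. With 2 libraries against 2 an exact permutation test cannot go below p = 0.333, and no other test was run on them.

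Together the 10 genes took 0.707% (95% Wilson interval 0.704 to 0.710) and 0.698% (0.695 to 0.701) of all counts in the DMSO libraries. With the inhibitor they took 1.02% (1.01 to 1.02) and 0.943% (0.939 to 0.946), intervals that cover counting error only. Hspa8 and Hsp90ab1 made up most of this, 77.8% and 77.2% of the set's counts in DMSO and 86.0% and 85.5% with the inhibitor. The larger share of the set in the inhibitor libraries therefore followed the constitutive genes. The set took 0.759% of summed FPKM in the DMSO library of replicate 1 and 0.639% in its inhibitor library.

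Several of these genes have processed copies elsewhere in the genome. Of the stretches of 50 bases in the Hsp90aa1 transcript, 58.5% occur in another annotated gene, most of them in Gm12346, and for Hspa8 the share is 51.4%, most of them in Gm15459. For Hspd1 it is 44.8%, most of them in Hspd1-ps3. The levels of these genes are thus uncertain to the extent that reads were assigned to such copies, which was not tested. Hspe1 shares 8.20%, Hsp90ab1 4.49% and Dnajb1 0.407%, and Hsph1 and Hsf1 share none.

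Heat shock factor 1 binds repeats of the unit GAA in alternating orientation, spaced by 2 bases. The choice of genes did not use promoter sequence, but they were chosen as heat shock genes, many of them induced through this factor. The shares with such repeats given below are therefore not independent of that choice. The RefSeq promoter windows (GRCm38.p6, from 250 bases before to 50 after each start) were searched for GAANNTTC and TTCNNGAA, each its own reverse complement, which can overlap each other. GAANNTTC occurs in 7.86% and TTCNNGAA in 8.52% of all 32851 windows. Windows were found for 6 of the 10 genes, and Hspa8, Hsp90aa1, Hsp90ab1 and Hsf1 had no entry. At least 1 of the motifs occurs in the windows of Hspa1a, Hspa1b, Hsph1, Hspd1 and Hspe1, 5 of the 6, and in those of 17.0% of all 27025 genes, while neither occurs in those of Dnajb1. A run of 3 units (GAANNTTCNNGAA or its reverse complement TTCNNGAANNTTC) occurs for Hsph1, Hspd1 and Hspe1, 3 of the 6, and for 0.662% of all genes. A match is a description of the sequence and not evidence of binding, and these data do not measure binding. Only exact letters within the windows were searched, so the absence of a match for Dnajb1 does not show that it lacks an element.

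The stretches around the matches are shown because genes that share them moved together in one case and apart in the other, with the matches in capitals. The windows of Hspa1a and Hspa1b are identical at 296 of 300 bases, and their match starts 104 bases before the start of each. The stretches of 60 bases around it, at chr17:34972227-34972286 and chr17:34959309-34959368 on the minus strand, are the same. Hspe1 and Hspd1 have the same 3 overlapping matches in a single stretch between their starts, which lie 216 bases apart for the second Hspd1 start. It is given at chr1:55088053-55088082, read on the plus strand for Hspe1 and on the minus strand for Hspd1. For Hsph1 the 30 bases at chr5:149636351-149636380 on the minus strand hold 1 of its 3 matches, 33 bases before the first of its 2 starts. Its other 2 matches overlap at chr5:149636288-149636300, after both starts, and form its run of 3 units, which is not shown. All these starts are those of RefSeq. The GENCODE models of Hspd1 and Hsph1 begin at chr1:55088243 and chr5:149636376 on the minus strand. The Hspd1 stretch and the Hsph1 match shown thus lie inside those models.
Hspa1a: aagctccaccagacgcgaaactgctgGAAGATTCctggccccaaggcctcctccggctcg
Hspa1b: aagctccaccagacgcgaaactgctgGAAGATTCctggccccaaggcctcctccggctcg
Hspe1: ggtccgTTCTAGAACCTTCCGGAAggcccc
Hspd1: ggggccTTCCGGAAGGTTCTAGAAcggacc
Hsph1: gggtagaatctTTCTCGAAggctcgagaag
Hspa1a and Hspa1b, with the same stretch, both rose, whereas Hspd1 fell and Hspe1 rose on either side of theirs. As given above, the split of reads between Hspa1a and Hspa1b is uncertain, and the call of Hspa1a rested on DMSO replicate 3.

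The rest of the chaperone network was taken from 10 fixed lists with 113 genes, of which 107 were tested, and 49 were called lower and 26 higher (32 not called). Over all 16269 genes tested the shares were 32.3% lower and 31.5% higher, as above. The co-chaperones lay close to both shares, and TRiC and prefoldin below both. These counts changed in several alternatives. The median log2 fold change over the 107 was −0.15, against 0.01 over all genes tested, and became −0.07 under upper-quartile scaling and −0.02 under library totals alone. The other members of the HSP70 and HSP110 families in the cytosol had 3 lower and 2 higher of 7. Hspa4, an exchange factor related to Hsph1, fell (log2 fold change −0.47 ± 0.06 SE), as did Hspa14, a ribosome-associated HSP70 (−0.87 ± 0.07 SE), whereas Hspa4l, the closest relative of Hspa4 in this list, rose (0.72 ± 0.08 SE). All 3 kept these directions in the replicate 1 pair, but the list did not. Its median was −0.31 in the counted libraries. Of its 5 genes at 1 FPKM or more in each library of the pair, 2 were lower and 3 higher, with a median log2 ratio of 0.08. Of Hspa4 and Hspa4l, Hspa4l thus rose like Hsph1 and Hspa4 did not. Of 14 other J-domain proteins, 8 fell and 4 rose. Dnajb5 fell the most of the list (−1.60 ± 0.11 SE), Dnajc2, which works on the ribosome, fell (−1.01 ± 0.07 SE), and Dnajc5, the cysteine string protein of vesicles, rose (0.94 ± 0.06 SE). In the replicate 1 pair 7 of the 14 were lower and 7 higher, with a median log2 ratio of 0.01. Dnajb5 differed little there, at 7.93 FPKM in DMSO and 7.83 FPKM with the inhibitor.

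The HSP70 and HSP90 co-chaperones were mixed, with 8 lower and 7 higher of 25 and a median log2 fold change of −0.05, which became 0.03 under upper-quartile scaling and 0.07 under library totals alone. Without DMSO replicate 2 there were 6 lower and 4 higher. Fkbp5 (−0.80 ± 0.07 SE) and Fkbp4 (−0.62 ± 0.07 SE), immunophilins that bind HSP90, fell. Bag3, which links HSP70 to autophagy and is itself heat-inducible, rose (0.89 ± 0.11 SE), and was listed at 4.00 FPKM in DMSO and 8.12 FPKM with the inhibitor in the replicate 1 pair. Of 10 small heat shock proteins, 5 were tested. Hspb1 (HSP27) rose from 11 and 12 counts to 76 and 40, and Hspb9 from 7 and 2 to 43 and 23, both at very low levels. The inhibitor libraries had more genes detected at all, as given above. Hspb7 fell from 33 and 43 counts to 18 and 13, Hspb11, a protein of cilia named with this family, fell from 405 and 418 to 303 and 357, and Hspb6 was not called, at 125 and 107 counts in DMSO and 104 and 128 with the inhibitor, except that without inhibitor replicate 3 it was called lower (log2 fold change −0.59, edgeR adjusted p = 0.0202). Other than Hspb11, the tested genes of this list thus rested on at most 128 counts in a library.

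The cytosolic chaperonin TRiC, the relative of HSP60, had 2 subunits lower and 2 higher of 8. Cct6a fell (−0.73 ± 0.06 SE), Cct3 fell (−0.36 ± 0.06 SE, and −0.24 under library totals alone) and Tcp1 rose (0.48 ± 0.05 SE). Without inhibitor replicate 2 there were 4 lower and 2 higher, and without DMSO replicate 2, and likewise without DMSO replicate 3, 2 lower and 1 higher. The median of −0.04 became 0.04 under upper-quartile scaling, 0.09 under library totals alone, 0.01 with at least 10 counts in every library and 0.02 without inhibitor replicate 3. In the replicate 1 pair all 8 subunits were lower with the inhibitor. Prefoldin, which hands actin and tubulin to TRiC, had 1 lower and 1 higher of 6, and 0 lower and 2 higher under library totals alone. Pfdn2 (0.26 ± 0.08 SE) lost its call without either DMSO library, with edgeR adjusted p = 0.250 and 0.0505, and Pfdn6 (−0.24 ± 0.09 SE) lost its call in several alternatives, with an edgeR adjusted p of 0.266 under library totals alone. Pfdn4 was not called (−0.20 ± 0.10 SE).

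In the mitochondria, the other chaperones had 6 lower and 1 higher of 9, with a median log2 fold change of −0.28. Under library totals alone 4 were lower and the median was −0.15. The one called higher lost its call in DESeq2, without either DMSO library and without inhibitor replicate 2. Fewer were called lower without either DMSO library, although with a library left out the median stayed between −0.31 and −0.28. Hspa9, the mitochondrial HSP70 that works upstream of Hspd1, fell from 17567 and 18906 counts to 13323 and 12513 (log2 fold change −0.89 ± 0.05 SE), and from 239.0 to 110.3 FPKM in the replicate 1 pair. Its J-domain partner Dnaja3 (−0.81 ± 0.08 SE) and the disaggregase Clpb (−0.80 ± 0.11 SE) fell too. Of 8 mitochondrial proteases 6 fell and 1 rose. Without DMSO replicate 2, and likewise without DMSO replicate 3, 5 were lower and the one called higher lost its call. Lonp1, the main protease of the matrix, fell from 14879 and 16000 counts to 9443 and 9535 (−1.09 ± 0.05 SE) and from 127.6 to 50.2 FPKM in the pair. Clpp (−1.09 ± 0.11 SE) and Htra2 (−1.49 ± 0.10 SE) fell as well. Hspd1 was thus lower along with Hspa9 and Lonp1, whereas Hspe1 was not.

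Among the other heat shock factors and their regulators, 3 of the 5 tested fell and 2 rose. Hsf2, which can form trimers with heat shock factor 1, rose from 388 and 418 counts to 1624 and 1182 (log2 fold change 1.41 ± 0.13 SE) and from 6.04 to 15.5 FPKM in the replicate 1 pair, while Hsf1 fell in the counted libraries. Hsf5 had 0 and 2 counts in DMSO and 27 and 17 with the inhibitor, and Hsf3 was at 0 in all 4 counted libraries. Hsf4 (66 and 71 counts against 56 and 41) and Hsf2bp (70 and 73 against 52 and 56) were low and fell, but neither passed in DESeq2, with adjusted p = 0.0694 and 0.0927. Hsbp1, a negative regulator of heat shock factor 1, fell (−0.28 ± 0.08 SE) and lost its call under upper-quartile scaling (log2 fold change −0.20, edgeR adjusted p = 0.0541), under library totals alone (−0.16, edgeR adjusted p = 0.125) and without DMSO replicate 2 (−0.25, edgeR adjusted p = 0.122).

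The chaperones of the endoplasmic reticulum, which answer to a separate stress pathway, had 10 lower and 4 higher of 20. Calr (−1.05 ± 0.05 SE), Hyou1, the HSP110 of this compartment (−1.08 ± 0.06 SE), and Manf (−0.97 ± 0.06 SE) fell. Their median of −0.14 was the opposite in sign to the 0.34 of the 10 heat shock genes, and became −0.06 under upper-quartile scaling and −0.01 under library totals alone, where 9 were lower and 7 higher. In the replicate 1 pair 7 of the 20 were lower with the inhibitor and 13 higher, with a median log2 ratio of 0.11. Of 10 immediate-early and stress genes, 6 fell and 3 rose, with a median of −0.64. Of the 9 at 1 FPKM or more in each library of the pair, 3 were lower and 6 higher, with a median of 0.77.

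**Figure D3:**
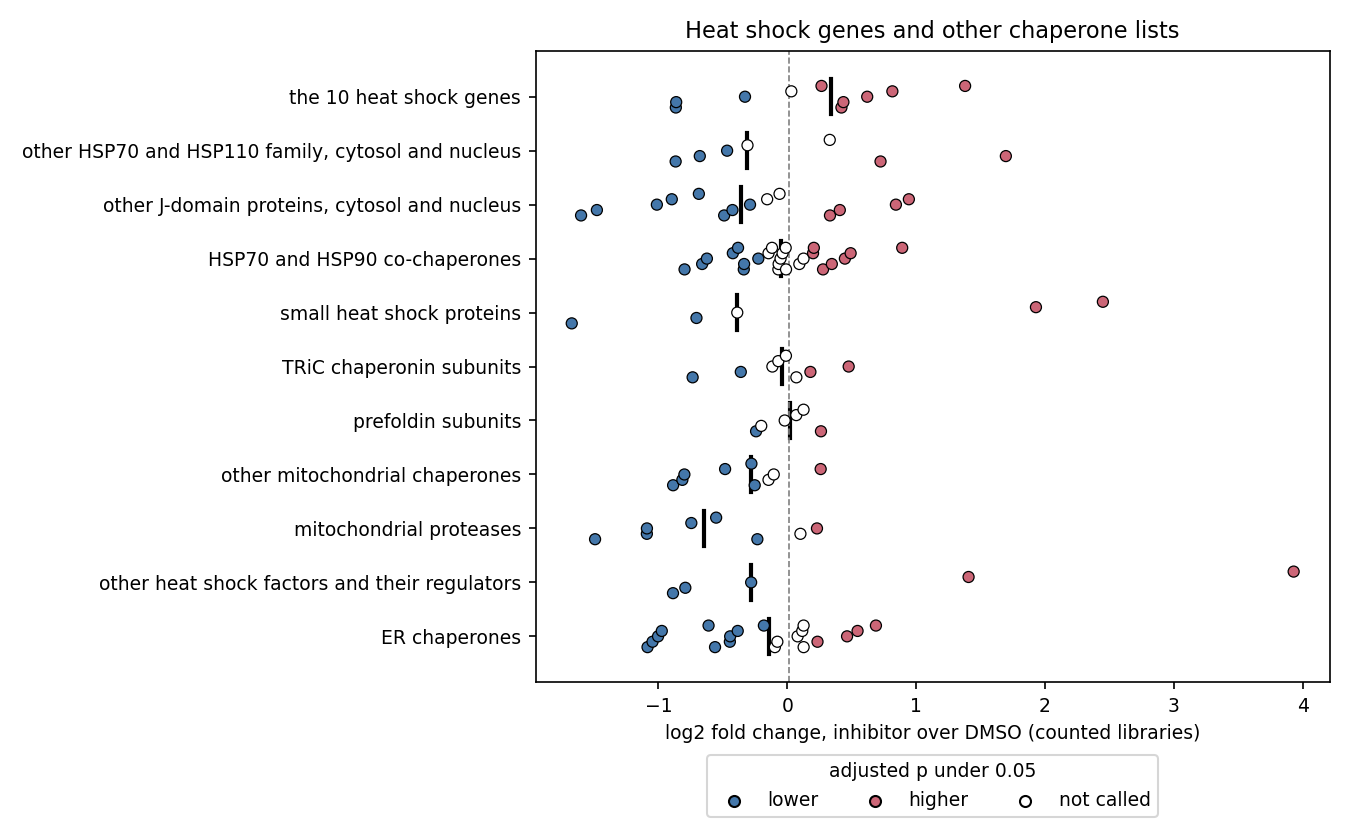
Log2 fold change, inhibitor over DMSO in the counted libraries, of every tested gene in the set and in 10 other chaperone lists. Each point is a gene, blue where called lower, red where called higher and white where not called (edgeR adjusted p under 0.05), the black bar is the list's median and the dashed line the median of all genes tested, 0.01. The median of the 10 heat shock genes is 0.34, and that of the mitochondrial proteases is −0.65.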

How the data were processed

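RNA-seq of CD4+ T cells from mouse spleen was analysed, with 3 libraries per group. Raw counts per gene, without normalization, were deposited for replicates 2 and 3, for which the submitters' processing notes name fastp 0.21.0, HISAT2 2.1.0, StringTie 2.1.5, DESeq2 1.30.1 and build mm10. Values deposited for the replicate 1 pair (FastQC and HISAT2 in the notes, without versions) are read here as FPKM, a unit the sources do not state. Across 10175 genes their log2 had a slope of −0.68 on log2 exon length at a given CPM, so that they are at least partly scaled by length. The annotation and the treatment of reads with several matches are not given in the sources used here.

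Counts were fitted with edgeR 4.0.16 (R 4.3.3; TMM, filterByExpr, quasi-likelihood test, Benjamini-Hochberg over 16269 genes, call at adjusted p under 0.05), 2 libraries against 2. The SE is the log2 fold change divided by the square root of F. The code was tested on simulated data. Libraries within each group were checked and were not duplicates. The replicate 1 pair entered no fit. Exon lengths, gene coordinates and transcripts are from GENCODE M21, and promoter windows from RefSeq. Protein identity between members, planned, was not computed. Alternatives were 3 scalings, 2 filters, the replicate block, DESeq2 1.42.0, each library left out, stricter thresholds, Hspa1a and Hspa1b summed, a pseudocount of 0.1 in place of 1, and, chosen after the data were seen, levels per kilobase of the longest transcript. Genes named are the 10 of the set, Mapk13, the 3 with the smallest p of each chaperone list (every tested gene where 5 or fewer were tested), and of each marker list the most abundant by mean count and any at 0. Cd4, Hsf3 and genes sharing sequence with the set were named after their values were seen. The 10 genes and the lists were chosen with earlier results of these data known.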

Additional observations from a re-analysis of the deposited data

Results flagged for a closer look

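In several genes both counted inhibitor libraries lay on one side of both DMSO libraries while the replicate 1 pair moved the other way; the difference between the sets of libraries was not tested, and the pair has no replicate check. Only genes named in this report are given. Of the 87 genes of the 10 other chaperone lists that did not overlap in the counted libraries and were at 1 FPKM or more in each library of the pair, 36 moved the opposite way in it, some by more than those below, and over all genes tested it was 3400 of 8986 (37.8%). In the set itself these were Hspa8 and Hsp90ab1, higher in the counted libraries and at log2 ratios of −0.18 and −0.58 in the pair. Among the other chaperones and regulators, Tcp1 (−0.035), Pfdn2 (−0.12) and Hsf5 (−0.013) were higher in the counted libraries and had these log2 ratios in the pair. Hspb11 (0.60), Hspb7 (0.14), Pfdn6 (0.066), Hsf4 (0.70), Hsbp1 (0.21) and Calr (0.42) were lower in the counted libraries and had these log2 ratios in the pair. The same held for the marker genes Pax5, at −0.66 in the pair, and Cd8b1, at 1.02, and for Mapk13, at 1.84. Several of these log2 ratios are close to 0, and Hspb7, Hsf4, Hsf5 and Mapk13 were under 1 FPKM in DMSO.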

How the results depend on the processing

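Counts of the 10 genes called lower stayed at 3 under every other scaling, filter, tool and left-out library tried, and at an adjusted p under 0.01. Counts called higher were 5 to 7 in the same alternatives. The median log2 fold change of the 10, 0.34, was 0.47 under library totals alone, 0.25 without DMSO replicate 3 and 0.27 with Hspa1a and Hspa1b summed as 1 gene. Requiring also an absolute log2 fold change over 1 left 0 lower and 1 higher, Hsph1, since that threshold is above most of the changes. Leaving out each counted library in turn moved the log2 fold change of Hspa1a between 0.23 and 0.60, of Hspa8 between 0.58 and 0.65, of Hsp90aa1 between −0.91 and −0.83 and of Hsph1 between 1.24 and 1.504. Without DMSO replicate 3, Hspa1a lost its call and Dnajb1, not called in either fit, had a log2 fold change of −2.5e-05, on the other side of 0 (up to 0.041 with another library left out); the cause was not tested. Cd4, not called in any fit, had a log2 fold change of 0.013 under RLE and in DESeq2, 0.080 under upper-quartile scaling, 0.12 under library totals alone, 0.044 with at least 10 counts in every library, and between −0.050 and 0.041 with a library left out. Over all genes named and all alternatives, 633 of 657 log2 fold changes kept their direction and side of the threshold. A fit left with 1 library in a group assumes that it varies like the other group.

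The replicate numbers do not show a pairing, since the deviations of same-numbered libraries from their group means had a correlation of −0.01 across genes; with the replicate number as a block, 5384 genes were called lower and 5261 higher, against 5252 and 5122 without it, and the 10 genes kept 3 and 6. DESeq2 called 4407 lower and 4217 higher. For the replicate 1 pair, a pseudocount of 0.1 in place of 1 moved the log2 ratio of Hspa1a from 1.97 to 2.17 and of Hspa1b from 1.94 to 2.11 and changed no direction among the 10. The tested small heat shock proteins other than Hspb11, and Hsf4, Hsf5, Hsf2bp and Mapk13, rest on at most 128 counts in a library.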
